A study of Mus musculus with 19 samples.

Results

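Serotonin receptor genes were followed in mouse brain tissue across 4 treatment groups. The set holds 10 genes, Htr1a, Htr1b, Htr1d, Htr1f, Htr2a, Htr2c, Htr4, Htr5a, Htr6 and Htr7, taken from a deposited table of 57010 genes by their symbols and not by their measured values. All 10 passed the filter on low counts and were among the 17757 genes tested. The table also lists Htr2b, Htr3a, Htr3b and Htr5b, which are given beside the set.

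The libraries were made from poly(A) RNA of medial prefrontal cortex of wild-type (WT) mice, 19 libraries in all. Every mouse was gavaged over 8 days and injected intraperitoneally over 5 days, and the groups differ in what was given. The control group (4 libraries) had saline by both routes. The LPS group (5 libraries) had saline gavage and injections of bacterial lipopolysaccharide, 1 mg/kg, with the gavage started 3 days ahead of the first injection. The sedanolide group (5 libraries) had saline injections and gavage with sedanolide, a celery phthalide, at 20 mg/kg. The co-treated group (5 libraries) had both agents at these doses, with the sedanolide gavage likewise started 3 days ahead of the first injection. Age and sex are not in the labels, and the labels do not say whether each library came from a separate animal, so p-values measure the spread between these libraries. The series is about depressive-like behaviour after LPS, and serotonin receptors are targets of drugs used in depression.

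Serotonin is released in the cortex by axons whose cell bodies lie in the raphe nuclei of the brainstem, so the receptors measured here are largely those of the cortical cells that receive it. Apart from the Htr3 genes, which encode subunits of an ion channel, the receptors act through G proteins. Those of the Htr1 and Htr5 classes couple to inhibitory G proteins that lower cyclic AMP, those of the Htr2 class couple to Gq and phospholipase C, and those encoded by Htr4, Htr6 and Htr7 raise cyclic AMP. Several are drug targets in psychiatry and migraine.

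Total counts were 19.08 M to 24.32 M per library. The libraries differed in genes of the olfactory bulb, which lies next to the prefrontal cortex. Cdhr1, a marker of bulb projection neurons, stood at 57.7 to 445 CPM (counts relative to library size, scaled by edgeR's TMM factors) in 7 libraries and at 2.29 to 9.92 CPM in the other 12. The 7 bulb-rich libraries were control replicates 1 and 5, LPS replicates 2, 3 and 4, and sedanolide replicates 3 and 4, and no co-treated library was among them. The sum of 8 bulb markers ranged from 9.04 to 1080 CPM in controls, from 9.22 to 452 CPM with LPS, from 4.71 to 428 CPM with sedanolide and from 3.61 to 8.53 CPM in co-treated libraries. Eomes, S100a5 and Tbx21 were each at 0 in 1 library and Ms4a15 in 6. The cortical label was matched by 6 excitatory neuron markers, among them Slc17a7 and Camk2a, which summed to 2820 to 8760 CPM over the 19 libraries. Values without the bulb-rich libraries are given beside many of the main results, but not beside all of them. In whole tissue, fewer cells of a type and less RNA per cell cannot be told apart.

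Promoter sequences are shown for the receptor gene that passed the test between treatments (Htr5a) and for the members that fell with the smallest p and rose with the smallest p along the bulb markers (Htr1b and Htr1d). Each is the 250 bases before the annotated start in RefSeq, GRCm38.p6, read 5′ to 3′ along the gene. The windows are chr5:27841697-27841946 on the plus strand for Htr5a, chr9:81633833-81634082 on the minus strand for Htr1b and chr4:136423274-136423523 on the plus strand for Htr1d, which has another window as well. Capitals mark a match to any of 10 motifs on either strand.
Htr5a: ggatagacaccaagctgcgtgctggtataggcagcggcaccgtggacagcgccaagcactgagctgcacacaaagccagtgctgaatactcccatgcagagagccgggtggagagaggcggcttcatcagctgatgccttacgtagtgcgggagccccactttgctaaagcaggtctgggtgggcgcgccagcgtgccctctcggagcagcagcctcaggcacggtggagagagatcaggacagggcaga
Htr1b: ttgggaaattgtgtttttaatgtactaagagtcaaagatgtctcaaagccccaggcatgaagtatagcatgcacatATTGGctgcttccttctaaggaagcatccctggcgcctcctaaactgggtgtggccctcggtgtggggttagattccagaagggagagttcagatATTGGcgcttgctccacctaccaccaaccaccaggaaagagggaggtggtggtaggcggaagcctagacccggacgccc
Htr1d: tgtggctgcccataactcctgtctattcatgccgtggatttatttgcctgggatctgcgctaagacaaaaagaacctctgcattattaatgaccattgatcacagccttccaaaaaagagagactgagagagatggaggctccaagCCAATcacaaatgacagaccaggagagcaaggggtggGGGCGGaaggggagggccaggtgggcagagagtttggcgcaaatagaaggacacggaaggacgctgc
The motifs searched, with the share of 32851 promoter windows that held each, were the GC box GGGCGG (32.7%), the CCAAT box CCAAT (33.8%), the TATA box TATAAA (12.4%), the cyclic AMP response element TGACGTCA (1.55%), the AP-1 element TGANTCA (6.75%), the E-box CACGTG (6.02%), the antioxidant response element TGACNNNGC (10.2%), the heat shock element GAANNTTC (6.69%), the NF-kB element (0.14%) and the glucocorticoid response element (0.387%). The Htr5a window held none of these letters, the Htr1b window held 2 CCAAT boxes, both on the opposite strand as ATTGG, and the Htr1d window held a CCAAT box and a GC box. Among the 11 windows of the 9 members searched, GC boxes also stood before Htr1a, Htr2a and Htr6, and a CCAAT box and an AP-1 element before Htr2c. GC content was 62% before Htr5a, 52.4% before Htr1b and 51.6% in the Htr1d window shown, beside a median of 52.4% over all windows. The other Htr1d window had a GC content of 72.4% and held 3 GC boxes. A match is a description of the letters only.

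The receptors differed widely in level. Scaled to exon length (CPM per kilobase), Htr2a led with a mean of 5.55 ± 1.31 (SD, n = 19 libraries). It was followed by Htr3a at 4.17 ± 0.625, Htr1a at 3.89 ± 0.816, Htr5a at 3.13 ± 0.526, Htr2c at 2.95 ± 0.913, Htr1b at 2.76 ± 0.931, Htr7 at 2.26 ± 0.668 and Htr6 at 2 ± 0.452. A step down followed, with Htr1f at 0.671 ± 0.318, Htr5b at 0.625 ± 0.432, Htr4 at 0.281 ± 0.204 and Htr1d at 0.255 ± 0.167. Htr2b, at 0 to 6 counts per library, and Htr3b, at 0 to 2 counts with 15 libraries at 0, were too low to test. The ranges of all neighbours in this order overlapped over the 19 libraries. Within libraries Htr1d exceeded Htr2b, which was too low to test, in 19 of 19. Among the genes tested the order was firmest at the step from Htr6 to Htr1f, where Htr6 was the higher in 18 of 19. By contrast Htr3a exceeded Htr1a in 9 of 19 and Htr7 exceeded Htr6 in 10 of 19. Htr1d and Htr4 rested on 3 to 62 and 4 to 81 counts per library, so the lowest of their values carry a large counting error.

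**Figure D1:**
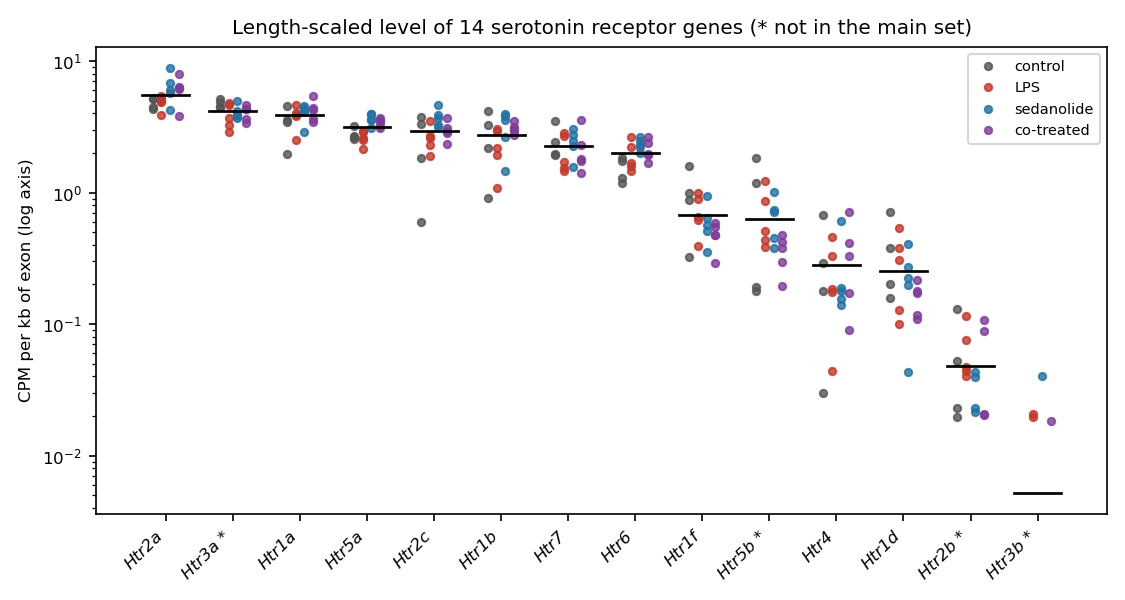
Length-scaled level (CPM per kilobase of exon, log axis) of 14 serotonin receptor genes in 19 libraries, ordered by mean (black lines), with points coloured by treatment group. Libraries at 0 have no place on a log axis and are not drawn, which leaves 17 points for Htr2b and 4 for Htr3b, and the 4 genes outside the set carry an asterisk.

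Htr5a, which encodes a receptor coupled to inhibitory G proteins, was the receptor gene that passed the test in a treatment comparison. In sedanolide libraries 1 to 5 it stood at 21.4, 21.5, 16.5, 19.2 and 19.6 CPM, and in control replicates 1, 2, 4 and 5 at 14.4, 13.7, 17.1 and 14.3 CPM. Means were 19.6 ± 2.01 CPM with sedanolide (SD, n = 5) and 14.9 ± 1.5 CPM in controls (n = 4). The groups overlapped only through sedanolide replicate 3, which lay below control replicate 4. The log2 change was 0.40 (SE 0.10, 95% interval 0.18 to 0.61, 1.32-fold, adjusted p = 0.0339 by edgeR's quasi-likelihood test). Htr5a was 1 of 10 members called in this comparison, where 5.31% of all genes tested were called, 3.2% higher and 2.11% lower.

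Among mice given LPS, Htr5a was also at a higher level in those that received sedanolide. The LPS libraries held 13.5, 11.5, 15.5, 14 and 15.9 CPM in replicates 1 to 5, and the co-treated libraries held 17.1, 19.9, 18.4, 16.7 and 19.1 CPM. The lowest co-treated library stood above the highest LPS library, so the groups did not overlap. How many of all genes separated in this way is not given here. The log2 change from LPS to co-treated was 0.37 (SE 0.10, 95% interval 0.17 to 0.58, 1.29-fold), with an adjusted p of 0.0535 that missed the threshold in a comparison where 0 of 10 members and 1.97% of all genes were called (0.287% higher, 1.68% lower). Of the LPS libraries 3 of 5 are bulb-rich. With the index of bulb markers as a covariate the change was 0.26 (adjusted p = 0.321), and within the bulb-poor libraries it was 0.32 (adjusted p = 0.365). Between co-treated and control libraries the log2 change was 0.29 (95% interval 0.08 to 0.51, adjusted p = 0.0692), 0.17 with the covariate (adjusted p = 0.36) and 0.24 within the bulb-poor libraries (adjusted p = 0.334).

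With LPS alone Htr5a had a mean of 14.1 ± 1.74 CPM (n = 5) and a log2 change from control of −0.08 (95% interval −0.29 to 0.14, adjusted p = 0.7), and the ranges overlapped. The test of whether the sedanolide change differed with and without LPS gave −0.03 on the log2 scale (95% interval −0.32 to 0.27, adjusted p = 0.95). An average of the 2 sedanolide changes, a contrast added after the data were seen, was 0.39 (SE 0.07, 95% interval 0.24 to 0.53, adjusted p = 0.00686), and Htr5a was the single member called by it, beside 10.7% of all genes, 4.46% higher and 6.22% lower. The corresponding average LPS change called 0 of 10 members, beside 11% of all genes, 8.77% higher and 2.24% lower. Below an unadjusted p of 0.05 lay 0 members, beside 22.6% of all genes. Of the 10 libraries from mice given sedanolide, 8 lay above every library without it, and of the 9 libraries without it, 8 lay below every library with it. Bulb-rich libraries were 2 of 4 controls, 3 of 5 with LPS, 2 of 5 with sedanolide and 0 of 5 co-treated. Htr5a had a median of 17.8 CPM in bulb-poor and 14.4 CPM in bulb-rich libraries. The averages were fitted without the bulb index, and the part of bulb tissue in this split was not tested.

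**Figure D2:**
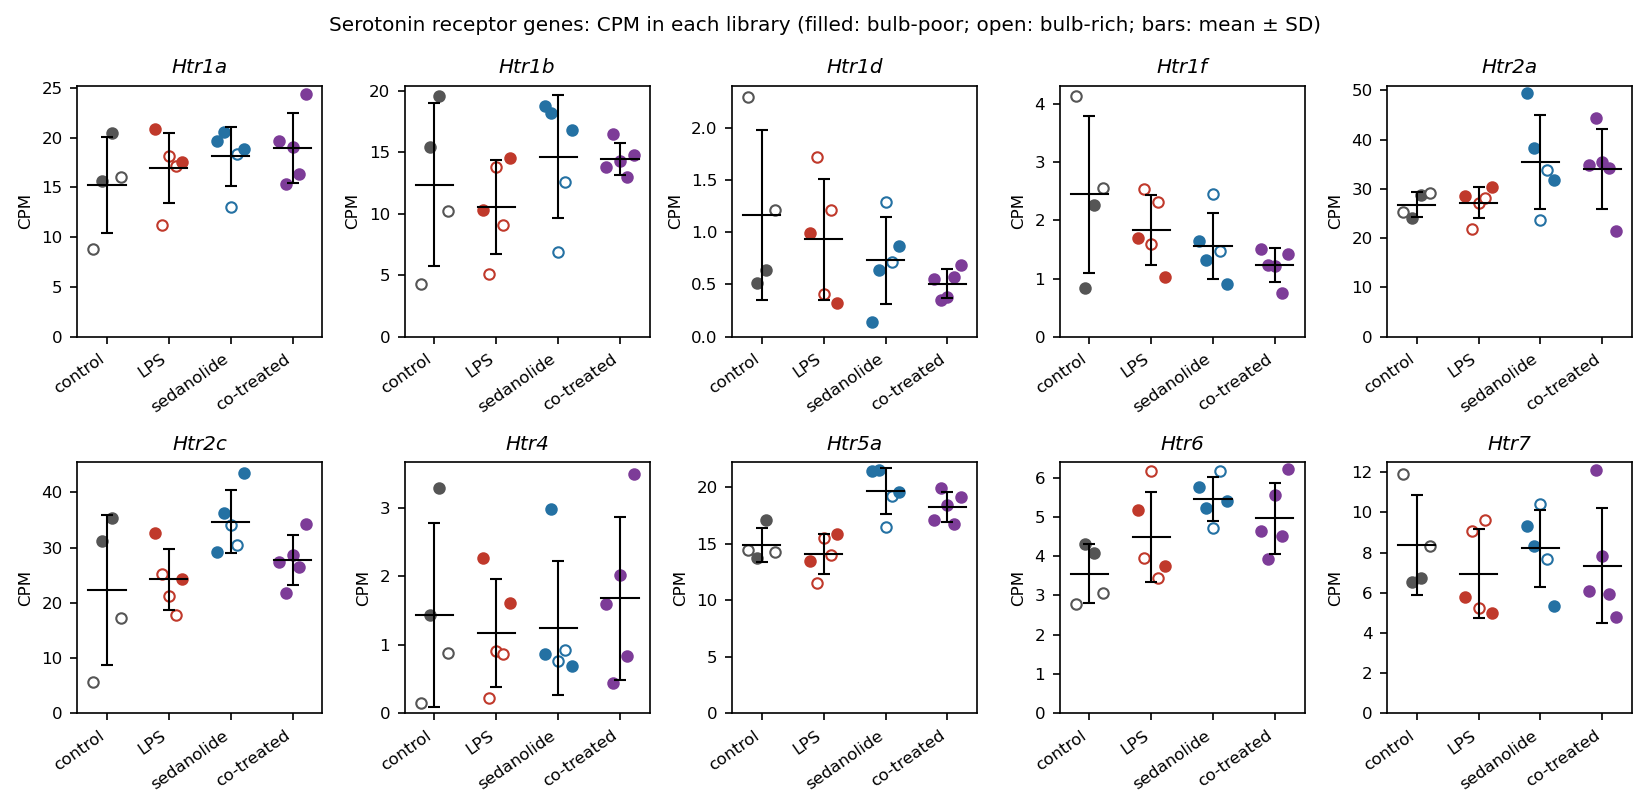
CPM (TMM-scaled) of each of the 10 receptor genes in every library, by treatment group, with filled points for bulb-poor and open points for bulb-rich libraries and bars for the mean ± SD (n = 4 controls, n = 5 in the other groups). In the Htr5a panel 8 of the 10 sedanolide and co-treated libraries stand above all 9 control and LPS libraries, and the Htr2a panel shows the same count.

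The call of Htr5a in sedanolide against control was not kept by every fit. It was lost without a filter on low counts (log2 change 0.38, adjusted p = 0.088) and with only the groups compared in the model (0.40, adjusted p = 0.107). With the index of bulb markers as a covariate the log2 change was 0.34 (adjusted p = 0.0384). Within the bulb-poor libraries it was 0.41 (adjusted p = 0.252), and within the bulb-rich ones, a split added after the data were seen, 0.30 (adjusted p = 0.328). The call was lost without control replicate 1 (adjusted p = 0.0768), control replicate 2 (0.0583), control replicate 5 (0.123), sedanolide replicate 1 (0.0628), sedanolide replicate 2 (0.0532), sedanolide replicate 4 (0.0855) or sedanolide replicate 5 (0.0684), while the log2 change stayed between 0.36 and 0.47 over all 19 omissions. Bulb markers were lower with sedanolide by a median log2 of −1.86, with 0 of 8 called. Excitatory neuron markers were higher by a median of 0.51, with 0 of 6 called, and summed to 2820 to 7110 CPM in controls, 5220 to 8010 CPM with LPS, 5840 to 8760 CPM with sedanolide and 7040 to 7890 CPM in co-treated libraries, none of these 6 genes being at 0 in any library. The part of excitatory neuron RNA in the Htr5a change was not tested.

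Genes whose profile over the 19 libraries was most like that of Htr5a, among 12750 protein-coding genes with a mean log2 CPM of 1 or more, were Hsph1, a heat shock protein, Dnajc5, a chaperone of synaptic vesicles, and Kifbp, a kinesin-binding protein. Pearson's r of log2 CPM was 0.97 for Hsph1, 0.96 for Dnajc5 and 0.94 for Kifbp, and within the 12 bulb-poor libraries it was 0.98, 0.94 and 0.92. These are descriptions of points that share library, depth and treatment group. The log2 difference of Hsph1 was 0.36 from control to sedanolide (adjusted p = 0.0701) and 0.45 from LPS to co-treated (adjusted p = 0.039), so that of the pair of comparisons it passed the test in the latter.

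Among the receptors that raise cyclic AMP, Htr6 had the largest separation. Control libraries held 2.77, 4.31, 4.08 and 3.05 CPM and sedanolide libraries 5.77, 5.23, 4.71, 6.17 and 5.39 CPM. These groups did not overlap, and the share of all genes that separated likewise is not given here. The log2 change was 0.62 (SE 0.19, 95% interval 0.23 to 1.01, 1.54-fold), and its adjusted p of 0.0556 missed the threshold. In LPS libraries Htr6 ranged from 3.43 to 6.17 CPM and in co-treated libraries from 3.92 to 6.21 CPM, and these 2 groups overlapped almost fully, with a log2 change of 0.14 (95% interval −0.22 to 0.50) that was 0 with the bulb index as a covariate and 0.16 within the bulb-poor libraries. The difference between the 2 sedanolide changes was −0.48 (95% interval −1.01 to 0.05, adjusted p = 0.363). DESeq2 called the change from control to sedanolide (adjusted p = 0.0169), as did limma-voom with sample weights (log2 change 0.77, adjusted p = 0.0109). Over all genes DESeq2 called 1895 and limma-voom 4399 in this comparison, beside 943 in the main fit. With the bulb index as a covariate the change of Htr6 from control to sedanolide was 0.56 (adjusted p = 0.0566). It was 0.35 within the bulb-poor libraries (adjusted p = 0.519) and 0.89 within the bulb-rich ones (adjusted p = 0.16).

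Htr7, a receptor studied in circadian rhythm and mood, showed no called change. Its values were 6.54 to 11.9 CPM in controls (median 7.52), 4.98 to 9.63 CPM with LPS (median 5.78), 5.34 to 10.4 CPM with sedanolide (median 8.32) and 4.78 to 12.1 CPM in co-treated libraries (median 6.1). All 4 ranges overlapped, and the interval of its change from control to sedanolide ran from −0.60 to 0.54. Htr4, which is also coupled to cyclic AMP production, had the widest relative spread of the 10 members, with a coefficient of variation of 72.7% over the 19 libraries. Its counts were 4, 31, 67 and 21 in controls and 19, 61, 17, 22 and 15 with sedanolide. LPS libraries held 48, 5, 22, 17 and 30 counts and co-treated libraries 35, 10, 43, 19 and 81 counts, so every group spanned a low and a high library. For Htr4 a change as large as 2-fold in either direction lay inside the interval in LPS against control (−1.79 to 1.23). The same held in sedanolide against control (−1.69 to 1.31).

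In the Htr2 class, Htr2a, the cortical receptor on which serotonergic psychedelics act, was the most abundant member. It stood at 25.3, 24.1, 28.7 and 29.2 CPM in controls and at 28.6, 21.9, 27.2, 28.1 and 30.4 CPM with LPS. The sedanolide libraries held 49.5, 38.3, 23.7, 33.9 and 31.8 CPM and the co-treated libraries 34.8, 44.4, 35.4, 34.2 and 21.4 CPM. In each of these 2 groups 4 of 5 libraries stood above every library without sedanolide, and the exceptions were sedanolide replicate 3 and co-treated replicate 5. The log2 change was 0.40 for sedanolide against control (95% interval 0.01 to 0.79, adjusted p = 0.187) and 0.32 for co-treated against LPS (95% interval −0.04 to 0.69, adjusted p = 0.305), neither of which passed. The average of the 2 changes was 0.36 (adjusted p = 0.0697). For co-treated against LPS the change of Htr2a was 0.16 with the bulb index as a covariate and 0.22 within the bulb-poor libraries. The sedanolide change of Htr2a was 0.57 within the bulb-poor libraries and 0.06 within the bulb-rich ones, and neither passed. From control to LPS the change was 0.02 (95% interval −0.37 to 0.41).

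Htr2c, whose transcript is edited and which is also abundant in choroid plexus, had its lowest value in control replicate 1, at 5.62 CPM, beside 31.1, 35.3 and 17.2 CPM in the other controls. Sedanolide libraries held 29.2, 36.2, 34.1, 30.4 and 43.5 CPM. The ranges overlapped, and the log2 change of 0.64 (95% interval −0.06 to 1.35, adjusted p = 0.24) did not pass. It was 0.11 within the bulb-poor libraries (adjusted p = 0.859) and 1.49 within the bulb-rich ones (adjusted p = 0.13), where the controls are replicates 1 and 5. LPS libraries held 32.7, 25.2, 21.3, 17.7 and 24.3 CPM of Htr2c and co-treated libraries 27.3, 21.7, 28.7, 26.4 and 34.3 CPM, and the log2 change between these groups was 0.19 (95% interval −0.47 to 0.85), −0.21 with the bulb index as a covariate and −0.03 within the bulb-poor libraries. Among choroid plexus markers, Ttr, the most defining of them, had a mean of 0.514 CPM and a highest value of 1.76 CPM and was at 0 in 3 libraries, while Aqp1 reached 33.7 CPM and Kl 6.33 CPM and neither was at 0. The 9 markers of that list summed to 7.65 to 43.8 CPM in controls and 3.89 to 17.8 CPM with sedanolide, and 0 of the 7 tested were called in this comparison. Their part in the Htr2c values was not tested.

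The Htr1 class gave 0 called changes between treatments. Htr1a, the receptor that inhibits serotonin neurons in the raphe and pyramidal cells in the cortex, had means of 15.2 ± 4.82 CPM in controls, 17 ± 3.55 with LPS, 18.1 ± 2.97 with sedanolide and 19 ± 3.56 in co-treated libraries. Its largest log2 change was 0.32, for co-treated against control (95% interval −0.12 to 0.76), which was 0.04 with the bulb index as a covariate and 0.07 within the bulb-poor libraries. Htr1b, a receptor of axon terminals, had means of 12.4 ± 6.59, 10.6 ± 3.8, 14.6 ± 4.96 and 14.5 ± 1.28 CPM in the same order. In the control group Htr1b stood at 4.32 and 10.2 CPM in the bulb-rich replicates 1 and 5 and at 15.4 and 19.6 CPM in replicates 2 and 4. The co-treated libraries, all bulb-poor, held 13.8, 16.5, 14.3, 13 and 14.8 CPM, the narrowest range of the 4 groups. An antisense noncoding gene, D430036J16Rik, overlaps Htr1b and held 1558 counts in all beside 5439 for Htr1b, and since the strand setting of the counting is not given in the sources used here the reads of both may be mixed.

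Htr1d and Htr1f, both targets of migraine drugs, had their lowest mean in the co-treated group. Htr1f stood at 4.14, 0.835, 2.26 and 2.55 CPM in controls and at 1.51, 1.23, 1.22, 0.752 and 1.42 CPM in co-treated libraries. The groups overlapped through control replicate 2. The log2 change was −1.0 (95% interval −1.75 to −0.25), and its adjusted p of 0.0755 missed the threshold in a comparison where 0 of 10 members and 11.1% of all genes were called (6.38% higher, 4.69% lower). Htr1d stood at 2.29, 0.51, 0.639 and 1.21 CPM in controls and 0.55, 0.352, 0.376, 0.575 and 0.69 CPM in co-treated libraries, with a log2 change of −1.20 (95% interval −2.31 to −0.10, adjusted p = 0.142). In this comparison 7 of 8 bulb markers were called lower. With the bulb index as a covariate the change was −0.35 for Htr1f (adjusted p = 0.563) and −0.17 for Htr1d (adjusted p = 0.873), and within the bulb-poor libraries it was −0.32 for Htr1f and −0.17 for Htr1d.

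**Figure D3:**
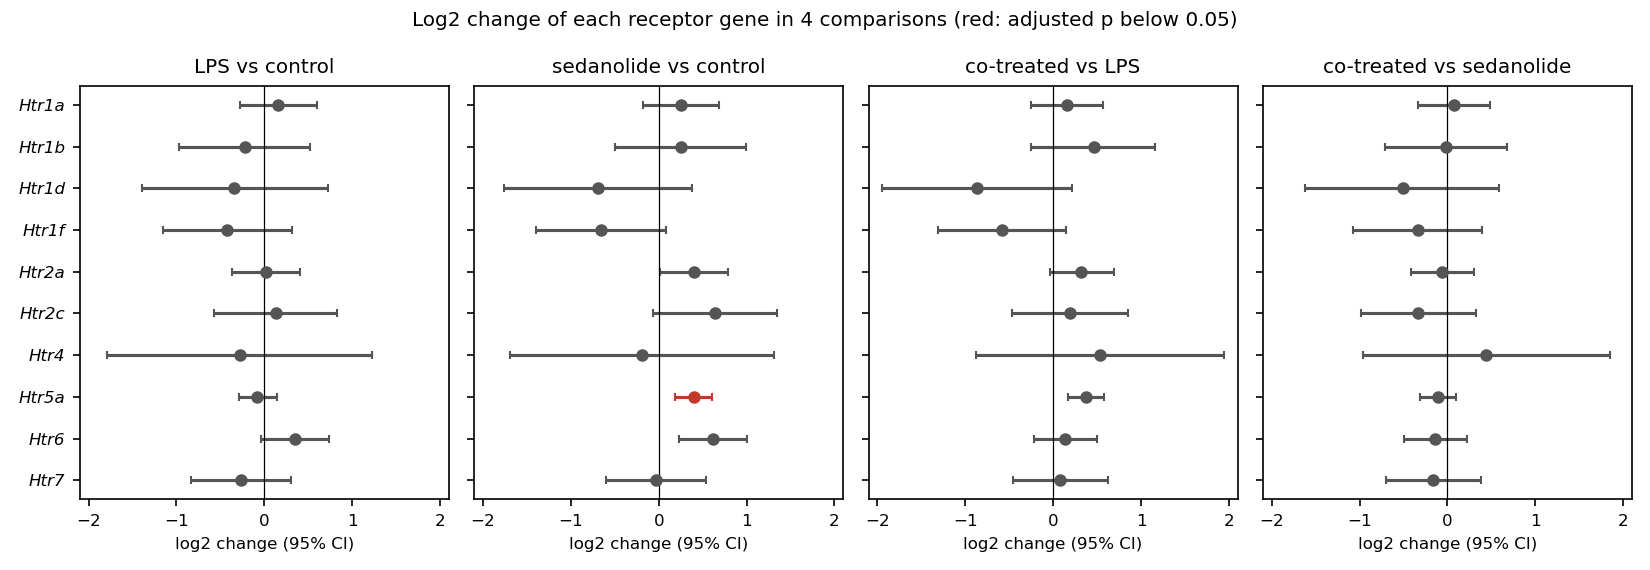
Log2 change (horizontal axis) of each of the 10 receptor genes in 4 comparisons, with 95% intervals from edgeR's quasi-likelihood fit, and in red the single change with an adjusted p below 0.05, Htr5a in sedanolide against control (0.40). Intervals are widest for Htr4 and Htr1d, the members with the fewest counts.

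Counted over the set, 0 of 10 members were called in LPS against control, where 10.9% of all genes tested were called, 8.47% higher and 2.44% lower. The median log2 change of the members was −0.15, beside 0 over all genes, and the changes ran from −0.42 (Htr1f) to 0.35 (Htr6). Below an unadjusted p of 0.05 there were 0 members, where 24.2% of all genes were. The median of the members was −0.13 with the bulb index as a covariate, −0.14 within the bulb-poor libraries and 0.09 within the bulb-rich ones. In sedanolide against control the median of the members was 0.25, beside −0.01 over all genes, and 3 members lay below an unadjusted p of 0.05 where 24.9% of all genes did. In co-treated against LPS the median was 0.18 beside −0.01, with 1 member below an unadjusted p of 0.05 where 19.8% of all genes were, and in co-treated against control it was 0.27 beside 0.01, with 4 members where 28.3% of all genes were. The median of the members within the bulb-poor libraries was 0.11 in sedanolide against control, 0.08 in co-treated against LPS and −0.05 in co-treated against control, so the last of these turned its sign. With the bulb index as a covariate the same medians were 0.14, −0.02 and 0.02. LPS on the sedanolide background (co-treated against sedanolide) gave a median of −0.12 beside −0.02. It had 0 of 10 members called where 5.58% of genes were (5.09% higher, 0.484% lower), and 0 below an unadjusted p of 0.05 where 16.2% were. The interaction of the 2 agents had 0 of 10 members called, where 0.586% of genes were (0.214% higher, 0.372% lower). Below an unadjusted p of 0.05 it had 0 members, where 15.9% of genes were. These comparisons share libraries. Under other tools the calls among members were 2 by DESeq2 and 3 by limma-voom in sedanolide against control, and 1 and 2 in co-treated against LPS. They were 1 and 3 in co-treated against control, and 0 and 1 in both LPS against control and the interaction. Neither tool called a member in co-treated against sedanolide. Over all genes DESeq2 called 1895 and limma-voom 4399 in sedanolide against control, beside 943 in the main fit. The counts were 911 and 2647 beside 350 in co-treated against LPS, and 2734 and 4784 beside 1965 in co-treated against control. In LPS against control they were 2308 and 4503 beside 1938, and in the interaction 441 and 3836 beside 104.

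More receptor genes were called along the level of a library's bulb markers than in the 6 treatment comparisons, each of which called 0 or 1. In a model with the 4 group means and the bulb index as a slope, a fit added after the data were seen, 6 of 10 members were called, 2 higher and 4 lower, where 31.3% of all genes were called, 14.8% higher and 16.5% lower. The slope is a log2 change per unit of the index, which ran from −1.13 to 7.06. Htr1b fell by 0.17 per unit (SE 0.03, adjusted p = 0.00043), Htr4 fell by 0.28 (SE 0.08, adjusted p = 0.012), Htr1a fell by 0.08 (SE 0.02, adjusted p = 0.0117) and Htr2c fell by 0.12 (SE 0.04, adjusted p = 0.026). Htr1d rose by 0.21 per unit (SE 0.05, adjusted p = 0.00594) and Htr1f by 0.14 (SE 0.04, adjusted p = 0.00862). Htr7 had a slope of 0.08 (adjusted p = 0.0635), Htr5a of −0.03 (adjusted p = 0.0775), Htr2a of −0.05 (adjusted p = 0.147) and Htr6 of −0.04 (adjusted p = 0.244), none of which passed. Members of the Htr1 class thus moved in opposite directions along the index.

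The levels show the same contrast. Htr1b had a median of 15.1 CPM in the 12 bulb-poor libraries (range 10.3 to 19.6) and of 9.08 CPM in the 7 bulb-rich ones (range 4.32 to 13.8). Htr1d had a median of 0.563 CPM in the bulb-poor libraries (range 0.137 to 0.987) and of 1.21 CPM in the bulb-rich ones (range 0.411 to 2.29). Htr1f went from 1.28 to 2.45 CPM and Htr4 from 1.61 to 0.857 CPM between the medians of the same sets, and all of these ranges overlapped. Outside the set, Htr3a and Htr5b were called higher along the index, with slopes of 0.06 (adjusted p = 0.00998) and 0.27 (adjusted p = 0.000325). Htr5b had a median of 0.742 CPM in bulb-poor and 1.96 CPM in bulb-rich libraries, and was called in 0 of the 6 treatment comparisons, as was Htr3a, a subunit of the serotonin-gated channel that marks a class of cortical interneurons.

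**Figure D4:**
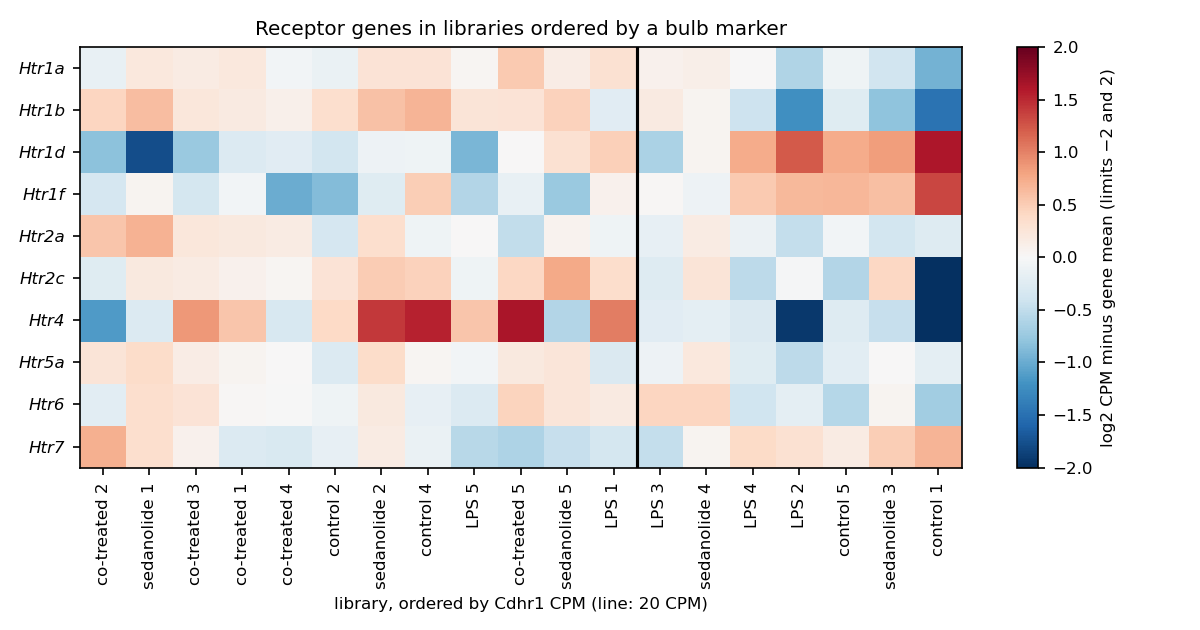
Log2 CPM of each receptor gene minus its mean over the 19 libraries (colour, limits −2 and 2), with libraries ordered from left to right by Cdhr1 and a line at 20 CPM that parts the 12 bulb-poor from the 7 bulb-rich libraries. Htr1d, Htr1f and Htr7 are mostly red to the right of the line, where Htr4, Htr1b, Htr2a, Htr2c and Htr5a are mostly blue. Of these genes, Htr7, Htr2a and Htr5a had slopes along the bulb index that did not pass the test.

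Genes that make, move and break down serotonin and its cofactor or precursor were given by a list of 22, of which 14 could be tested. In LPS against control 2 of the 14 were higher, 0 were lower and the median log2 change was −0.10, where 10.9% of all genes were called. They were Maoa, the monoamine oxidase that degrades serotonin, with 45.3 ± 5.47 CPM in controls and 57.1 ± 2.33 CPM with LPS (log2 change 0.34, SE 0.09, adjusted p = 0.0163), and Ddc, the decarboxylase of its last synthetic step, with 7.36 ± 1.6 and 11.2 ± 1.58 CPM (log2 change 0.60, SE 0.18, adjusted p = 0.038). Maoa ranged from 37.4 to 49.5 CPM in controls and from 53.7 to 59.4 CPM with LPS. Ddc ranged from 4.96 to 8.35 CPM in controls and from 9.54 to 13.5 CPM with LPS. The share of all genes whose groups separated in this way is not given here. Microglial markers were called higher in 6 of 7 and endothelial markers in 6 of 6 in the same comparison, with summed levels of 361 to 573 CPM against 874 to 1130 CPM for microglia and of 264 to 407 CPM against 517 to 632 CPM for endothelium, and no marker of either list was at 0. The part of these cells in the 2 changes was not tested. Maoa lost its call without control replicate 1 (adjusted p = 0.0591), and Ddc without any of 6 single libraries, namely control replicates 4 and 5, LPS replicates 1, 2 and 5 and sedanolide replicate 4 (adjusted p up to 0.13). Within the bulb-poor libraries the change of Maoa was 0.22 (adjusted p = 0.338) and that of Ddc 0.94 (adjusted p = 0.0445). Within the bulb-rich ones Maoa changed by 0.42 (adjusted p = 0.125) and Ddc by 0.28 (adjusted p = 0.431).

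In sedanolide against control 1 of the 14 was called where 5.31% of all genes were, Gch1, whose enzyme begins the synthesis of the cofactor tetrahydrobiopterin. It stood at 3.93 ± 1.5 CPM in controls and 2.37 ± 0.192 CPM with sedanolide (log2 change −0.73, SE 0.21, adjusted p = 0.046). In co-treated against control 1 was called where 11.1% of all genes were, the vesicular transporter Slc18a2, at 10.1 ± 2.22 and 6.63 ± 0.701 CPM (log2 change −0.61, SE 0.16, adjusted p = 0.0186). The Gch1 call held in 5 of 19 omissions of a library and was lost in the others (log2 change −0.91 to −0.47), and within the bulb-poor libraries the change was −0.43 (adjusted p = 0.491). The Slc18a2 call was lost without control replicate 1 or 5 (adjusted p up to 0.0874), and within the bulb-poor libraries the change was −0.32 (adjusted p = 0.281). In the other 3 comparisons, co-treated against LPS, co-treated against sedanolide and the interaction, the count was 0 of 14. Over all genes the shares called there were 1.97%, 5.58% and 0.586%. Markers of the serotonin neuron itself were near 0, with means over the 19 libraries of 0.329 CPM for Tph2, the neuronal tryptophan hydroxylase, 0.143 CPM for the serotonin transporter Slc6a4 and 0.00442 CPM for the transcription factor Fev. Slc6a4 was at 0 in 5 libraries and Fev in 18, while Slc18a2, the remaining gene of that marker list, which other amine neurons also express, averaged 7.94 CPM. The most abundant gene of the list was Qdpr, which regenerates the cofactor, at 92 ± 12.5 CPM in controls.

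Genes that carry the signal inside the cell, were given by a list of 35 that could all be tested. In LPS against control 4 were higher and 3 lower (median log2 change 0.14), where 10.9% of all genes tested were called, 8.47% higher and 2.44% lower. Those higher were the adenylyl cyclase Adcy9 (log2 change 0.80, adjusted p = 0.000297), the phospholipase Plcb3 (0.66, adjusted p = 0.00365), the inhibitory G protein subunit Gnai2 (0.49, adjusted p = 0.00429) and the arrestin Arrb2 (0.36, adjusted p = 0.00724). Those lower, named after their values were seen, were S100a10, whose protein p11 binds several serotonin receptors (−0.54, adjusted p = 0.0195), Gnai1 (−0.32, adjusted p = 0.0407) and the potassium channel subunit Kcnj3 (−0.42, adjusted p = 0.0451). The microglial and endothelial values given above stand beside these as well, and their part was not tested. Adcy9, Plcb3, Gnai2 and Arrb2 kept their call in all 19 omissions of a library, S100a10 in 15, Gnai1 in 10 and Kcnj3 in 6, each loss including control replicates 1 and 5. Within the bulb-poor libraries Adcy9 was called (0.72, adjusted p = 0.00407), and the other 6 were not, with changes of the same sign.

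In sedanolide against control 5 of the 35 were higher and 2 lower (median 0.22), where 5.31% of all genes were called. Adcy9 was higher by 0.90 (adjusted p = 0.00336), Kcnj6, another channel subunit that inhibitory receptors open, by 0.68 (adjusted p = 0.0191) and Adcy3 by 0.52 (adjusted p = 0.022), while S100a10 had a change of −0.58 (adjusted p = 0.0309). The remaining calls, named after their values were seen, were Adcy2 (0.32, adjusted p = 0.0349) and Arrb1 (0.29, adjusted p = 0.0421) higher and Gnai3 (−0.36, adjusted p = 0.0353) lower. In co-treated against LPS Adcy2 was the single call (0.35, adjusted p = 0.0212), where 1.97% of all genes were called, 0.287% higher and 1.68% lower. That call was lost without any of LPS replicates 2 and 4 and co-treated replicates 2, 3, 4 and 5 (adjusted p up to 0.0723). In co-treated against control 6 were higher and 2 lower where 11.1% of all genes were called, the smallest p-values being those of Adcy9 (0.67, adjusted p = 0.00291), Gnai3 (−0.39, adjusted p = 0.0133), Kcnj6 (0.61, adjusted p = 0.0145) and Arrb2 (0.33, adjusted p = 0.0173). Adcy9 was also the single call of the interaction (−1.03, adjusted p = 0.0114), where 0.586% of all genes were called. It stood at 19.6 ± 3.38 CPM in controls, 34.1 ± 6.83 with LPS, 36.6 ± 2.21 with sedanolide and 31.2 ± 2.73 CPM in co-treated libraries. The levels after each agent were thus above control, and the mean after both was below that after either alone. The Adcy9 calls in the interaction and the other 3 comparisons held in all 19 omissions. The other calls of the list in sedanolide against control held in 9 (Arrb1) to 17 (Kcnj6 and Adcy3) of 19, each being lost without control replicate 5 or sedanolide replicate 4. Those in co-treated against control held in 7 (Grk2, named after its values were seen) to 18 (Kcnj6) of 19, each being lost without control replicate 5. Within the bulb-poor libraries the log2 difference of Adcy9 was 0.70 with sedanolide (adjusted p = 0.0527) and 0.51 in co-treated against control (adjusted p = 0.0204). Its interaction there was −0.90 (adjusted p = 0.0507). Of the calls in these comparisons, that of Adcy9 in co-treated against control was the only one kept within the bulb-poor libraries. Dlg4, a scaffold protein of excitatory synapses, was the most abundant gene of the list, at a mean of 977 CPM.

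As a neighbouring group of amine receptors, 11 of 13 dopamine and adrenergic receptor genes could be tested. The alpha-adrenergic receptor Adra2c was the single call in sedanolide against control (0.45, SE 0.12, adjusted p = 0.0331), where 5.31% of all genes were called, and in co-treated against control (0.43, SE 0.12, adjusted p = 0.0238), where 11.1% were. Its levels were 17.6 ± 1.37 CPM in controls, 21.3 ± 4.77 with LPS, 24.1 ± 1.25 with sedanolide and 23.8 ± 1.47 CPM in co-treated libraries. Adra2c lost its call in sedanolide against control without control replicate 1 or 5 or sedanolide replicate 1, 4 or 5 (adjusted p up to 0.122), and its call in co-treated against control without control replicate 1 or 5 or co-treated replicate 5 (adjusted p up to 0.0793). Within the bulb-poor libraries the log2 difference of Adra2c was 0.36 with sedanolide (adjusted p = 0.346) and 0.35 in co-treated against control (adjusted p = 0.176). Adrb1 was the most abundant of these receptors, at a mean of 37.6 CPM. The share called in sedanolide against control was 1 of 11 in this group and 1 of 10 among the serotonin receptors, and the difference between these shares was not tested.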

How the data were processed

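The authors deposited a table of raw read counts per gene for 19 libraries, made with a stranded poly(A) kit per the labels' protocols; fastp, HISAT2, StringTie, RSEM and DESeq2 are named in the submitters' processing notes without versions, and the genome build, annotation and strand setting are not given in the sources used here. Counts were tested with edgeR 4.0.16 (R 4.3.3): filterByExpr by group (17757 genes kept), TMM factors, robust quasi-likelihood fit of 4 group means over all 19 libraries, two-sided tests, Benjamini-Hochberg adjustment over all genes tested, calls at an adjusted p below 0.05. CPM values use TMM-scaled library sizes. Standard errors are the log2 change over the square root of F. Exon lengths are the union of exons in GENCODE M21 (GRCm38), matched by gene ID. The bulb index is the mean log2 CPM (prior count 2) of Eomes, Cdhr1, Doc2g and Shisa3, and bulb-poor means Cdhr1 under 20 CPM.

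Alternatives were RLE and upper quartile factors, no filter, at least 1 CPM in 4 libraries, DESeq2 1.42.0, limma-voom 3.58.1 with sample weights, the compared groups alone, a replicate block, the bulb index as a covariate, bulb-poor libraries alone and each library left out. Bulb-rich libraries alone, averaged contrasts and the index slope were added after seeing the data. The edgeR script was tested on simulated counts. Members and gene lists were chosen with earlier results of these data known. The text names all members, the other serotonin receptors, up to 4 called genes of a list per comparison by smallest p, the most abundant gene of a list, and the 3 genes most correlated with a called member. Promoters come from RefSeq GRCm38.p6, with the 50 bases after the start removed; that of Htr4 was not used here. A result of the dopamine and adrenergic receptor list is not reported here. Depth was 19.08 M to 24.32 M counts per library.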

Additional observations from a re-analysis of the deposited data

Results flagged for a closer look

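In 40 sets of libraries (10 members in 4 groups), 1 library stood apart from the rest of its group by Dixon's criterion. It was Htr4 in sedanolide replicate 2, at 2.98 CPM, where the other 4 sedanolide libraries lay between 0.685 and 0.923 CPM. That library held 61 counts of Htr4. Chance flags about 1 in 20 such sets.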

How the results depend on the processing

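The count of called members moved with the fit. In sedanolide against control the count of 1 became 0 without a filter on low counts, 0 with only the groups compared, 0 with the replicate block (Htr5a 0.41, adjusted p = 0.106), 0 in bulb-poor and 0 in bulb-rich libraries, 2 with DESeq2 and 3 with limma-voom, and it ran from 0 to 2 with 1 library left out. Without control replicate 2 the count was 1 but the gene was Htr6 (adjusted p = 0.0369). In co-treated against LPS the count of 0 became 1 with RLE factors, upper quartile factors, DESeq2 or only the groups compared, and 2 with limma-voom, and ran from 0 to 1 with 1 library left out. In co-treated against control it became 1 with DESeq2 and 3 with limma-voom, and ran from 0 to 1. In LPS against control and in the interaction it became 1 with limma-voom. The cause was not tested, other than that fewer libraries enter the split fits. Of the 1750 alternative values of a member's log2 change, 26 passed the threshold where the main value did not, 12 lost the call, and a called change never turned its direction. Calls over all genes in sedanolide against control were 943, and 19 with only the groups compared, 95 with the replicate block, 8 in bulb-poor libraries, 0 in bulb-rich libraries, 439 without a filter, 1895 with DESeq2, 4399 with limma-voom and 97 to 1410 with 1 library left out; in the other comparisons they were 1938 (761 to 4503 over the alternatives other than omissions), 350 (35 to 2647), 1965 (615 to 4784), 990 (795 to 3513) and 104 for the interaction (20 to 3836). For libraries sharing a replicate number, the correlation of their deviations from the group means over 27 pairs ran from −0.514 to 0.29. In these deviations 1 of 19 libraries was most like one of its own number. The deviations also hold the bulb differences between libraries, so these values cannot decide whether a batch follows the replicate number. Htr1d and Htr4 had the fewest counts of the members. The parts of low counts and of differences between libraries in their wide intervals were not tested.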
